A study of Homo sapiens with 12 samples.

Results

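The comparison set the poly(A) RNA-seq library of human cells given 10 µM girolline against the RNA-seq libraries of cells given DMSO, and asked which mRNAs moved within 2 h. Its members were chosen by the treatment in the labels, which gave 3 of the 12 libraries of the series, 1 at 10 µM and 2 with DMSO. A further RNA-seq library at 1 µM entered the fit and is shown beside them. The other 8 libraries held ribosome footprints.

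All groups were wild-type HEK293T flp-In cells, an embryonic kidney line that carries an engineered site for inserting transgenes, grown in serum and antibiotics. Treated cells received girolline, a sponge compound, at 10 µM or at 1 µM, and the control cells received DMSO, its solvent. The series title presents girolline as a modulator of eIF5A, a translation factor. The labels do not say whether the DMSO libraries came from separate cultures, and each dose had 1 library, so p-values measure the spread of the DMSO pair only and assume that the girolline libraries vary likewise. In bulk RNA, a change in every cell and a shift in the mix of cell states cannot be told apart.

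The level of an mRNA is set by how fast it is made and how fast it decays, and over a short exposure short-lived mRNAs can move furthest. eIF5A binds the ribosome and helps it form difficult peptide bonds and release finished chains, so it acts on translation rather than on transcription. RNA-seq counts show the amount of an mRNA, not its translation. Poly(A) selection keeps RNAs with a tail, so all values below refer to that pool.

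The tables name transcripts by UCSC IDs, which neither the files nor the tables used here pair with gene names. Planned gene lists and cell type markers were therefore not analysed here, the cell line was not checked against its markers, and transcripts are described by coding length, counts and place in the table. Isoforms of a gene stand in neighbouring rows and share reads. Rows with a coding length and distinct counts numbered 59395, and 56229 of them passed the filter on low counts and were tested. Total counts were 28424272 in the 10 µM library, against 32586618 and 42194871 in the DMSO libraries. These totals count reads shared by isoforms repeatedly.

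At 10 µM, 302 rows were higher than with DMSO and 321 were lower by edgeR's quasi-likelihood test at an FDR of 0.05, which is 0.537% and 0.571% of all rows tested and 1.11% together. Where called rows of either direction lay at most 10 coding rows apart they were counted as 1 locus, which may join neighbouring genes. The 623 called rows formed 308 loci, of which 124 held rises alone, 174 held falls alone and 10 held both. The median log2 fold change (10 µM over DMSO) was 0.99 among rises and -0.99 among falls, with interquartile ranges of 0.81 to 1.25 and -1.32 to -0.82. In every called row the 10 µM value lay outside the range of the DMSO libraries, and in 103 rises and 120 falls it lay more than 2-fold outside it. The calls rest on these same libraries, so such values were largely built into them. Of all 56229 tested rows, 40484 lay outside that range and 1277 lay more than 2-fold outside it. DESeq2 called 102 rises and 123 falls (0.532% and 0.642% of the 19164 rows to which it gave an adjusted p). Keeping 1 transcript per block of 10 coding rows gave 79 and 87 (0.908% and 1% of those kept), and testing in edgeR against a change of 1.5-fold left 48 and 26 (0.0854% and 0.0462%).

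The DMSO libraries differed less from each other. Among 19596 rows with a mean of at least 10 CPM (read counts scaled to library size), 102 differed over 2-fold between the 10 µM library and DMSO 1 and 149 between the 10 µM library and DMSO 2. Only 3 differed that much between the DMSO libraries. In called rises the median log2 ratio of the 10 µM library was 0.90 over DMSO 1 and 1.00 over DMSO 2, and in called falls it was -0.93 and -0.99. The median log2 ratio of DMSO 2 over DMSO 1 was -0.12 in the same rises and 0.11 in the same falls, so the controls themselves lay slightly apart where calls were made. At 1 µM edgeR called 0 of 56229 rows and DESeq2 also called 0. Of these rows, 557 had an unadjusted p under 0.05 in edgeR and 22 in DESeq2. Both shares lie below the 0.05 that evenly spread p-values would give. Rows called at 10 µM had small values at 1 µM, with medians on the log2 scale of 0.12 for the rises and -0.13 for the falls; both doses share the DMSO libraries.

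The leading rises, with the best-covered called row standing for each locus, were lone transcripts or compact loci of mostly mid-length coding regions. Most of them changed little at 1 µM, where log2 fold changes reached 0.85. Transcript uc001cze.4, of 332 codons, led them. It had 4334 counts (185 CPM) in the 10 µM library, against 972 and 897 counts (37.0 and 26.7 CPM) in the DMSO libraries. The 1 µM library held 1025 counts (31.8 CPM), within the range of the DMSO libraries. Its log2 fold change was 2.54 (SE 0.18) at 10 µM, which passed edgeR's test at adjusted p = 5.05e-42, and -0.002 at 1 µM.

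Transcript uc003mbv.3, of 368 codons, was second. It had 853 counts (36.4 CPM) in the 10 µM library, against 230 and 272 counts (8.77 and 8.11 CPM) in the DMSO libraries. The 1 µM library held 274 counts (8.50 CPM), again between the controls. It changed by 2.11 on the log2 scale (SE 0.21; edgeR, adjusted p = 2.85e-19). No other row was called in the locus of either transcript.

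The next loci are given by the coding length of their best-covered called transcript. A lone transcript of 281 codons had 2234 counts (95.3 CPM) at 10 µM, against 610 and 808 counts (23.2 and 24.1 CPM) with DMSO, a log2 fold change of 2.01 (SE 0.19). Its 1042 counts at 1 µM (32.3 CPM) lay above both controls, with a log2 fold change of 0.45 that was not called. A lone transcript of 544 codons had 12.8 CPM at 10 µM, against 4.69 and 2.45 CPM with DMSO, a log2 fold change of 1.86 (SE 0.26). In that transcript the controls lay far apart, and the 10 µM library lay well above both.

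Several of the leading loci held called rows that rose by nearly the same amount. A locus of 6 called rows, of 107 to 182 codons, had log2 fold changes of 1.69 to 1.92, and its best-covered row had 429 counts at 10 µM, against 150 and 173 with DMSO. A locus of 7 called rows, of 142 to 381 codons, had log2 fold changes of 1.56 to 1.76, and its best-covered row had 166 counts at 10 µM, against 78 and 50 with DMSO. A pair of rows of 380 and 382 codons had 1.80 and 1.85. Only called rows enter these ranges, and isoforms share reads, so likeness among them was in part built in. All 6 tested rows in the span of the first locus were called, and 7 of 9 in that of the second. Across the 12 leading rises, coding lengths ran from 131 to 544 codons and log2 fold changes from 1.62 to 2.54, while the values at 1 µM ran from -0.25 to 0.85 with a median of 0.07.

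**Figure D1:**
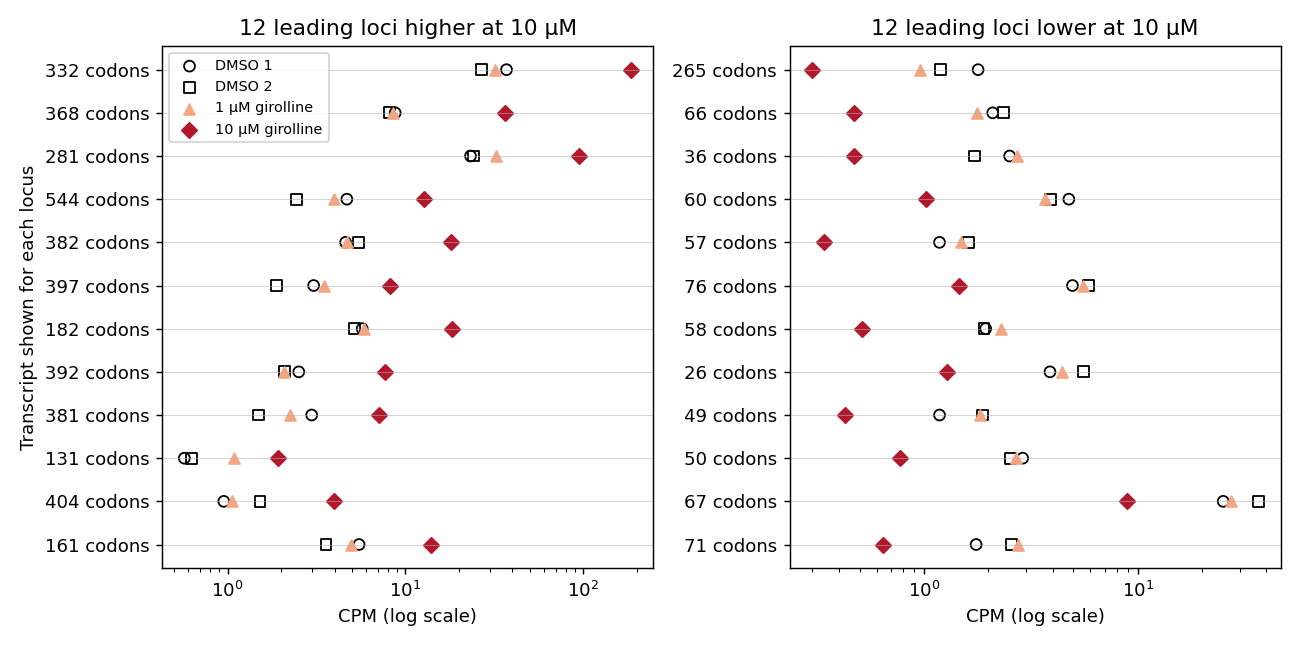
CPM (log scale) of the transcript shown for each of the 12 leading loci that were higher at 10 µM girolline (left) and of the 12 that were lower (right), 1 point per RNA-seq library. In all 24 loci the 10 µM point lies outside both DMSO points, as the rule that chose them requires; the values at 1 µM lie among or near the DMSO points in most loci.

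The leading falls rested on far fewer counts and shorter coding regions. Transcript uc059hwj.1, of 265 codons, had 7 counts (0.30 CPM) in the 10 µM library, against 47 and 40 counts (1.79 and 1.19 CPM) in the DMSO libraries. The 1 µM library held 31 counts (0.961 CPM), below both controls. It changed by -2.29 on the log2 scale (SE 0.58; edgeR, adjusted p = 0.0123). Set against the 1 µM library, the log2 fold change at 10 µM was smaller, at -1.67. In a joint edgeR fit with the disome libraries the change from DMSO was -2.28 with adjusted p = 0.0213. The spread in that fit comes in part from the disome libraries. Without DMSO 1 the joint fit gave -2.00, and without DMSO 2 it gave -2.54. Leaving out a DMSO library leaves 1 library in every RNA-seq group, so the spread comes from the disome libraries and no p-value is given.

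Transcript uc057lsi.1, of 66 codons, had 11 counts (0.469 CPM) in the 10 µM library, against 55 and 79 counts (2.10 and 2.36 CPM) in the DMSO libraries. The 1 µM library held 57 counts (1.77 CPM). The 10 µM value lay far below the other libraries, at -2.24 on the log2 scale (SE 0.48; edgeR, adjusted p = 0.000838). The best covered of the 12 leading falls, of 67 codons, had 208 counts (8.87 CPM) at 10 µM, against 660 and 1230 counts (25.2 and 36.7 CPM) with DMSO. Its log2 fold change was -1.80 (SE 0.23), and 878 counts (27.2 CPM) at 1 µM lay between the controls. Apart from the first, of 265 codons, the 12 leading falls had 26 to 76 codons. In 3 called falls the 10 µM library had 0 counts, and setting these to a floor of 3 counts in that library left the median of all falls at -0.99.

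Falls had shorter coding regions than rises in the median. The length column of the RNA-seq tables, taken as codons, is 20 lower than that of the disome tables, and the region over which reads were counted is not given in the sources used here. On the RNA-seq column as deposited, the falls had a median length of 72, the rises 381 and all tested rows 220. Of 647 rows with a deposited length of 10 to 24, 13 fell (2.01%) and 2 rose (0.309%). Of 2819 rows with 25 to 49, 77 fell (2.73%) and 4 rose (0.142%). Of 14503 rows with 480 or more, 1 fell (0.0069%) and 128 rose (0.883%). Over all tested rows, 0.571% fell and 0.537% rose. All rows of these length classes, called or not, had median log2 fold changes of -0.28, -0.19 and 0.11. Whether this shift with length came from the treatment or from the lone 10 µM library was not tested. Over all lengths, the share of rows called was larger at higher read support in both directions. For falls it was 0.364% at 1 to 10 CPM, 0.791% at 10 to 100 CPM and 4.99% at 100 CPM or more. For rises it was 0.401%, 0.775% and 3.21%. Of the 45 rises at 100 CPM or more, 32 had 100 to under 200 codons, and 23 of those 32 had 127 or 131 codons. The order did not hold for rises in every length class. From 300 to under 500 codons their shares were 0.558%, 0.542% and 0.431%, and from 500 to under 1000 codons 0.445%, 1.16% and 2.71%. Under 100 codons, 64 of 3962 rows at 1 to 10 CPM fell (1.62%), 81 of 577 at 10 to 100 CPM (14.0%) and 20 of 73 at 100 CPM or more (27.4%). The median log2 fold change of all rows in these classes, called or not, was -0.15, -0.29 and -0.36.

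**Figure D2:**
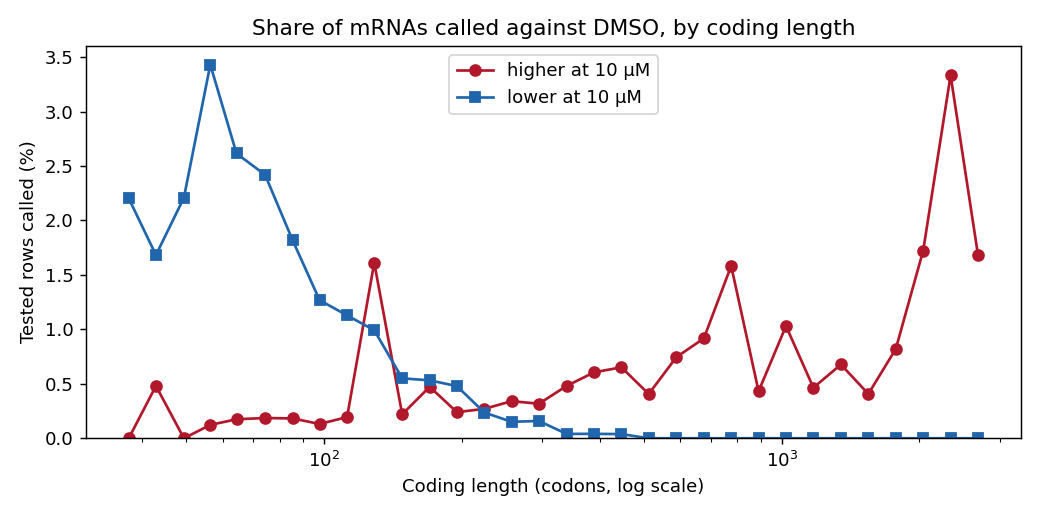
Share of tested rows called higher (circles) or lower (squares) at 10 µM girolline than with DMSO, in percent, by coding length in codons (log scale), for length bins with at least 100 rows. Falls lie mainly under 200 codons and rises lead above 300, with a local rise among the called-higher rows in the bin that holds 127 and 131 codons.

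Rises did not follow length alone, because they gathered at 2 exact coding lengths. Of 189 rows of 127 codons 22 rose (11.6%), and of 179 rows of 131 codons 14 rose (7.82%), against 0.537% of all rows. These lengths were picked after the counts by length were seen, so no test is given. At the other 59 lengths between 100 and 160 codons, with 149 to 204 tested rows each, no length had more than 2 rises and 35 had 0. Among rows with at least 10 CPM, 34 of 86 at 127 or 131 codons rose (39.5%), against 13 of 1965 at those other lengths (0.662%). Without them, the class from 100 to under 200 codons held 52 rises in place of 88, or 0.332% of its rows.

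The 36 rises of 127 or 131 codons lay in 5 places of the table, and 28 of them in a single stretch of 149 coding rows that formed 4 loci. There, all 10 tested rows of 131 codons and 18 of 19 of 127 codons rose, and 0 of 101 tested rows of any length fell. The row that was not called had 20.9 CPM at 10 µM, against 13.9 and 15.1 CPM with DMSO, a log2 fold change of 0.53 (SE 0.22) and an adjusted p = 0.289 in edgeR. In all 29 rows the 10 µM library lay above both DMSO libraries. Summed over them it held 193643 counts (8259 CPM), against 111562 and 143580 counts (4252 and 4281 CPM) with DMSO, and the 1 µM library held 149650 counts (4641 CPM). The sums of the DMSO libraries were nearly equal in CPM, and that of the 10 µM library lay far above them. The stretch was picked by its called rises, so a higher 10 µM value was built into the choice for the called rows. The sums also count reads shared between rows repeatedly.

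The median log2 fold change was 1.31 at 131 codons, 0.91 at 127 codons, 0.51 in 7 rows of 104 codons and 0.44 in 6 rows of 137 codons. Of the rows of 104 codons 1 rose, by 0.60, and of those of 137 codons 2 rose, by 0.63 and 1.73. The other 59 tested rows had a median of 0.06, and 5 of them rose: a row of 171 codons and a row of 170 codons by 1.54 each, 2 rows of 129 codons by 0.95 and 0.94, and a row of 167 codons by 0.80. The rises of 1.54 and 1.73 exceeded the medians at 127 and 131 codons. The row that rose by 1.73 had a mean of only 0.83 CPM, against 149 CPM for each row that rose by 1.54. At 1 µM the medians were 0.14 at 131 codons and 0.12 at 127 codons, against DMSO. Neighbouring rows of equal length may share reads with near-identical copies or isoforms, and how such reads were assigned was not given in the sources used here, so the 29 rows are not 29 separate measurements and single rows among them are uncertain.

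**Figure D3:**
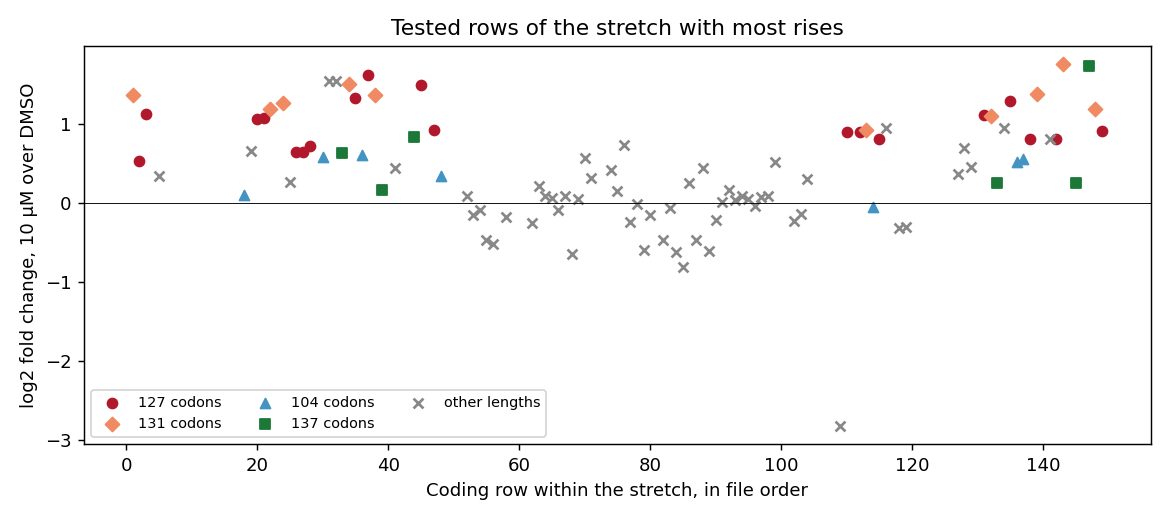
Log2 fold change at 10 µM over DMSO of the 101 tested rows in the stretch of 149 coding rows with most rises, in file order, marked by coding length. All 29 rows of 127 or 131 codons lie above 0.5, while rows of other lengths in the middle of the stretch scatter around 0.

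The stretch, itself picked by its rises, was also the densest place for rises in the whole table. Cut into 470 windows of 200 coding rows, the table held 0 rises in 360 windows and at most 25 in any of them. The 10 richest windows held 104 of the 302 rises (34.4%). Of the falls at most 8 lay in a window, and 63 of 321 (19.6%) in the 10 richest. The second densest place of rises, with 16 in its window, was a locus of 17 called rows with a median of 765 codons, of which 16 rose and 1, of 55 codons, fell.

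**Figure D4:**
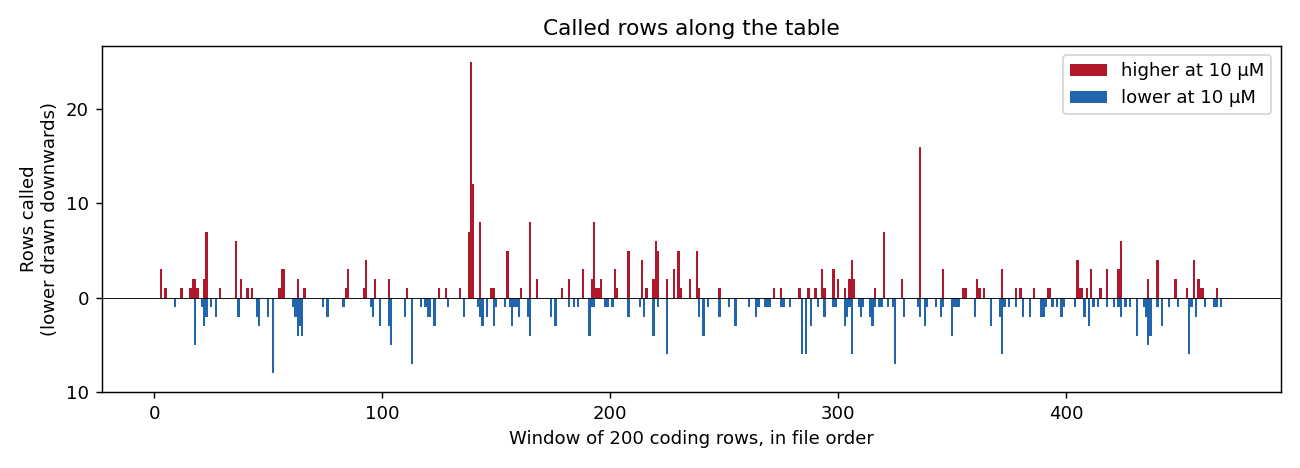
Number of rows called higher (upwards) or lower (downwards) at 10 µM girolline than with DMSO in each window of 200 coding rows, in file order. Rises reach 25 in a single window and falls at most 8.

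Lone rows made up 71 of 124 loci with rises alone (57.3%) and 111 of 174 loci with falls alone (63.8%), and 17 and 18 loci of these kinds held 4 or more called rows. The largest locus of falls alone held 8 called rows, which were all 8 tested rows of its span. They had 80 to 131 codons and log2 fold changes of -1.12 to -0.82. A locus of 8 rises, of 142 to 455 codons, spanned 0.84 to 1.42. In 8 of the 10 loci with both directions, every row that fell was shorter than every row that rose.

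Most rows beside the called ones moved little. Within 5 coding rows of loci with rises alone, 640 uncalled rows of at least 1 CPM had a median of locus medians of 0.12 on the log2 scale, against 1.04 for the called rows of these loci. Beside loci with falls alone, 1183 such rows had -0.21, against -1.05 for the called rows. The neighbour median was above 0 in 80 of 121 loci with rises and in 38 of 174 loci with falls. Beside this, 27302 of all 56229 tested rows had a log2 fold change above 0. All rows under 100 codons had a median of -0.17, and neighbours were not matched by length. Neighbours hold other genes as well as isoforms, and leaving out called rows keeps their values small.

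**Figure D5:**
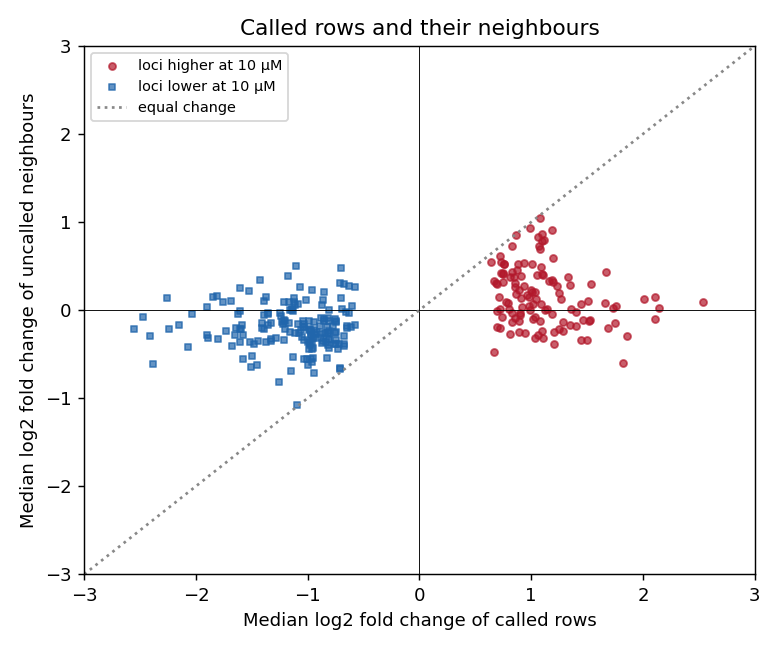
Median log2 fold change at 10 µM over DMSO of uncalled rows within 5 coding rows of a locus (vertical) against that of its called rows (horizontal), 1 point per locus with calls in 1 direction, with 3 loci beyond the axis limit of 3 not drawn. Nearly all points lie closer to 0 on the vertical axis than on the horizontal axis.

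The 128 rises of 500 codons or more (0.883% of all rows of that length) lay in 67 loci, with log2 fold changes of 0.63 to 1.86 and a median of 0.82. Their median log2 ratio of the 10 µM library was 0.74 over DMSO 1 and 0.88 over DMSO 2, while DMSO 2 over DMSO 1 gave -0.10. Only 31 of the 128 exceeded 2-fold. The 172 falls under 100 codons (2.12% of 8123 rows) lay in 121 loci, with a median of -1.16, and 118 of them exceeded 2-fold. Read support was not matched between these sets, and called changes were larger where it was low. Over all lengths, the median of called falls was -1.40 at 1 to 10 CPM and -0.76 at 100 CPM or more. That of called rises was 1.12 and 0.85.

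Disome footprints, which come from 2 ribosomes in contact, were counted under the same IDs in other libraries of the same treatments. mRNAs that fell often had more disome footprints at 10 µM. Of 283 mRNA falls tested in the disome libraries, 177 rose there and 24 fell (62.5% and 8.48%), against 20.8% and 14.9% of all rows tested there. With 1 row per locus, 83 of 151 rose and 12 fell. Disome footprints also rose more often on short coding regions in general, on 32.1% of all rows under 100 codons and 29.2% of those from 100 to under 200 codons, against 18.8% of all rows of 100 codons or more. Among the mRNA falls, 86 of 142 in the first class (60.6%) and 76 of 119 in the second (63.9%) rose in disome footprints. The median log2 disome change of the mRNA falls was 1.00, against -0.03 for all rows tested in both. It was 0.43 for all rows under 100 codons and 0.33 for all from 100 to under 200 codons. The mRNA falls had a median of 18.4 CPM, against 5.24 CPM for all tested rows, and read support was not matched.

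Disome changes of mRNA rises went with length, as they did over all rows. Of 123 mRNA rises of 500 codons or more, 9 rose and 45 fell in disome footprints (7.32% and 36.6%), beside 6.25% and 23.7% of all rows of that length. Of 109 mRNA rises under 500 codons other than those of 127 or 131 codons, 38 rose and 8 fell (34.9% and 7.34%), beside 26.4% and 9.67% of all rows under 500 codons. Of 32 mRNA rises of 127 or 131 codons, 14 rose and 4 fell (43.8% and 12.5%), beside 29.2% and 8.66% of all rows from 100 to under 200 codons. Transcript uc001cze.4 had 1406 disome counts at 10 µM, against 342 and 565 with DMSO, a log2 fold change of 1.24 (SE 0.17), and uc003mbv.3 had 87 disome counts, against 14 and 24, a log2 fold change of 1.81 (SE 0.31). The transcript of 281 codons had fewer, with 96 disome counts at 10 µM, against 123 and 178 with DMSO, and a log2 fold change of -1.05 (SE 0.25). All 3 passed edgeR's quasi-likelihood test at an FDR of 0.05 in the disome libraries.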

How the data were processed

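The authors deposited 1 table of raw read counts per transcript for each library, without normalization. The submitters' processing notes name hg38, STAR 2.7.0a and CASAVA 1.8, but not what each tool did. The sources used here do not give the counter or the annotation release, which are therefore not stated. The second column of the deposited tables is a length, taken as codons, 20 lower in RNA-seq than in disome tables; 20 was added back. Rows with no coding length held 0 counts and were left out, and rows with identical counts in all 4 RNA-seq libraries were merged.

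edgeR 4.0.16 (R 4.3.3) was run on these counts (TMM scaling, filterByExpr, quasi-likelihood test, Benjamini-Hochberg adjustment over all 56229 rows), in 1 fit of 4 RNA-seq libraries and 3 groups with 1 residual degree of freedom. TMM makes changes relative, so a shift shared by most transcripts would not show. The common dispersion gave a coefficient of variation of 11.8%. Over 34628 distinct rows with at least 20 counts, chi-square per degree of freedom between the DMSO libraries was 9.17, so they differed by more than sampling noise. Standard errors are the fold change divided by the root of its F value. Ratios of single libraries used a pseudocount of 0.5 CPM. Disome libraries were fitted alone in the same way.

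The rule for named transcripts took called rows with a mean of at least 1 CPM whose 10 µM value lay outside the DMSO range, kept the best-covered row of each locus, and named the 2 largest changes in each direction by ID. The members, lists and classes were chosen with earlier results of these data known. In simulated data with the same design (55381 rows), the fit recovered 58% of 2-fold and 100% of 4-fold rises, and 44% of 2-fold and 96% of 4-fold falls, with 4 false calls. The simulated rows were independent and had the common dispersion in every library. The false calls therefore do not cover reads shared by isoforms, dispersion that varies by row, or extra spread of the 10 µM library. DESeq2 1.42.0, other scalings, filters and left-out libraries were tried as alternatives. The monosome tables use other IDs and were not used here.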

Additional observations from a re-analysis of the deposited data

How the results depend on the processing

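No paired analysis was possible because each girolline dose had 1 RNA-seq library. DESeq2 called 102 rises and 123 falls; all of these were among the 302 and 321 of edgeR, of which DESeq2 gave an adjusted p to 185 and 211. It left 31 loci with rises alone and 63 with falls alone, 64 falls under 100 codons and 37 rises of 500 codons or more, but 33 of 36 rises at 127 or 131 codons. Keeping 1 transcript per block of 10 coding rows gave 79 rises and 87 falls, 18 falls under 100 codons, 52 rises of 500 codons or more and 18 rises at 100 CPM or more; it tests fewer rows by construction. Testing against a change of 1.5-fold in place of 0 left 48 rises and 26 falls. A joint fit with the disome libraries gave 341 rises and 414 falls, with 294 of the 302 and 317 of the 321 among them. Leaving out a DMSO library in that joint fit leaves 1 library in every RNA-seq group, and the spread then comes from the disome DMSO libraries. Such fits cannot show how far the calls depend on the RNA-seq DMSO pair, so their calls are not counted here. The log2 fold changes without DMSO 1 and without DMSO 2 were 2.76 and 2.32 for uc001cze.4 and 2.13 and 2.06 for uc003mbv.3. They were -2.00 and -2.54 for uc059hwj.1 and -2.34 and -2.13 for uc057lsi.1. DESeq2 size factors in edgeR gave 304 rises and 302 falls. The alternatives at 127 or 131 codons were chosen after the data were seen.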

Other observations

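A few calls went against the general order of lengths. Under 100 codons, 12 of 8123 rows rose (0.148%, against 0.537% of all rows). They lay in 12 loci, with 41 to 91 codons and log2 fold changes of 0.63 to 1.93. At 300 codons or more, 4 rows in 4 loci fell, with 336 to 5208 codons and log2 fold changes of -1.35 to -0.67. They were 3 of 9404 rows from 300 to under 500 codons (0.0319%) and 1 of 4286 rows of 1000 codons or more (0.0233%). None of 10217 rows between these classes fell, and 0.571% of all rows did.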
